A study of Mus musculus with 38 samples.

Results

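The 9 genes described here are used as general markers of tissue macrophages. They are the surface receptors and proteins Csf1r, Adgre1, Cd68, Itgam, Fcgr1, Tyrobp and Mertk, the pore-forming protein Mpeg1 and the lysozyme Lyz2. Their probes were found by the gene name in the scanner files, with Emr1 read as Adgre1 and Lyzs as Lyz2. The 9 genes had 15 probes of the 40628 non-control probes on the array, which carry 29353 gene symbols. Csf1r had 3 probes, and Adgre1, Itgam, Lyz2 and Mpeg1 had 2 each. Where a gene had several, the probe of highest mean level stands for it and the other probes are given beside it.

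The arrays held RNA of stromal vascular cells, the cells of fat other than adipocytes, from the epididymal fat of C57BL/6J mice, which the labels call epididymal infiltrating macrophages. The mice were divided into 5 diets after weaning at 3 to 4 weeks of age. LFC was a low fat diet with 10% of calories from fat (10 arrays), and HFC was a high fat diet with added sucrose and 60% of calories from fat (10 arrays). HF5, HF20 and HF75 were the HFC diet with 5, 20 or 75 µg of KAL-1, a botanical formulation (6 arrays each). LFC and HFC were sampled at days 6, 10 and 14 (D6, D10, D14) and at weeks 0, 3, 6, 9, 12, 15 and 18 (W0 to W18), and the KAL-1 diets at the 6 time points from W3. There was 1 array for each diet and time point, although the series text speaks of more replicates. Each test between diets thus set a difference against the spread over time points, and p-values measure that spread only. In the tests over W3 to W18 that spread was a single estimate shared by the arrays of all 5 diets. Slopes within a diet were set against the scatter of that diet's arrays around the line. How many mice gave the RNA of an array was not stated in the sources used here. For 4 arrays, those of HF5 and HF20 at W15 and at W18, the diet field names a dose that the title and source name contradict, and these latter were followed.

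Csf1r is the receptor for CSF1 and IL-34, on which most tissue macrophages depend for survival. Fcgr1 is the high-affinity receptor for IgG and passes its signal through an adaptor chain, as do many receptors that use Tyrobp (DAP12). Itgam (CD11b) pairs with the beta2 integrin chain to bind complement fragments and adhesion molecules, and Mertk is a receptor tyrosine kinase with which macrophages take up dying cells. Adgre1 encodes F4/80, the adhesion receptor used to sort mouse macrophages, and Cd68 is a glycoprotein of late endosomes and lysosomes. In obese fat, macrophages gather around dying adipocytes, which is why these genes are followed in studies of diet.

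Each probe is a 60-base sequence, and probes of the same gene did not always give the same reading, so the sequences of the genes with a pair of differing probes are shown first, 5′ to 3′ as in the array design. They are in lower case. Of some only 30 bases are given, and the second probe of each pair is the one of lower mean level.
Adgre1, first probe, bases 1 to 30: ttgtgtttcctatgcactttcttgtggtgt
Adgre1, second probe: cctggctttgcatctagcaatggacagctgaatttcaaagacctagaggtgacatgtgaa
Lyz2, first probe (named Lyzs in the files), bases 1 to 30: cttaagttccttcattcacactaactctga
Lyz2, second probe: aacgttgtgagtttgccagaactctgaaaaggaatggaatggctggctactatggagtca
Mpeg1, first probe, bases 1 to 30: aagagggctaattgcacaacctctccatcg
Mpeg1, second probe: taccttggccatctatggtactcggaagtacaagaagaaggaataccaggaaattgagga

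The probes of the genes that stand at the ends of the comparisons below were these, with a polyadenylation hexamer (AATAAA or ATTAAA) in capitals where the probe has one. Fcgr1 was the only member with a hexamer (1 of 15 member probes), against 10.2% of all probes on the array.
Cd68, bases 1 to 30: ttgggccaaagcttctgctgtggaaatgca
Itgam, first probe: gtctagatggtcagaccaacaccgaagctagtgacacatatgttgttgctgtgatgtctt
Mertk, bases 1 to 30: agcaccaggtgaaagctgtcaagtcaggtt
Tyrobp: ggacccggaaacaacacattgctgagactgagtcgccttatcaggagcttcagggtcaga
Fcgr1, bases 31 to 60: ctcttaAATAAAgcaaatatacagactgga

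A level is the log2 processed signal of a probe minus the log2 of its array's 75th percentile, so that 0 is a probe at that percentile and 1 unit is a 2-fold difference. Levels were compared within a probe only. The 75th percentile itself lay between 25.8 scanner units on HF5 W12 and 1983 on HFC W0, and HF75 W3 was the next dimmest at 88.4. From 40.1% to 91.6% of the probes of an array were well above background. Brightness differed between the control diets by 0.66 log2 on average (SD 0.78, n = 10 time points), with HFC above LFC in 9 pairs of arrays.

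Some arrays stood apart from their label by genes that have nothing to do with macrophages. Tcf21 and Wt1, transcription factors of visceral fat, were not well above background on LFC D6 and LFC D10 and had levels between -8.56 and -3.73 on the W6 arrays of HFC, HF5, HF20 and HF75. Ucp1, the uncoupling protein of brown fat, had levels of 3.83 on LFC D6, 5.11 on LFC D10 and 6.93 on HF5 W12, and -2.46 or less on every other array. Xist, the RNA of the inactive X chromosome, had levels of -1.24 on LFC W3 and 0.49 on HFC D10 and -3.93 or less elsewhere. The adipocyte list, 11 genes of the cell type that a stromal vascular preparation is meant to leave out, was highest on HF75 W12 (mean level 5.17), LFC W9 (5.14) and HFC W9 (5.10). The median difference between HFC and LFC of the 9 genes is given below with and without the time points of these arrays. For the KAL-1 diets minus HFC, only W12, or HF5 W12 with HF75 W3, was left out on this account. Correlations and the values of slopes within a diet rest on all arrays.

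All 9 genes were well above background on nearly every array: on 38 of 38 for each first probe but that of Itgam, which was so on 35. These marker genes were thus measured on the arrays of all diets. In RNA of mixed cells, fewer macrophages and less of an RNA per macrophage cannot be told apart. As a common scale, each gene's level was set against its own mean over the arrays and the 9 deviations were averaged. On this scale HF20 W12 was the lowest array (-1.89), also with the unsaturated of the Lyz2 probes described below (-1.99). That low was not particular to these genes. HF20 W12 was also the lowest array for the adipocyte list (mean level -0.63) and a list of stromal progenitor genes (1.82). For a list of epididymis genes it was the highest HF20 array (1.53), near HF20 W15 (1.43) and HF20 W3 (1.18) and below LFC D14 (3.89). At the other end, HF5 W9 had 1.43 and HFC W12 1.18, and with that Lyz2 probe 1.27 and 1.29. With the first probe of each gene, LFC arrays ran from -0.83 (W3) through a median of -0.48 to 0.65 (W0), and HFC arrays from -1.18 (W15) through a median of 0.23 to 1.18 (W12). With the unsaturated Lyz2 probe the lowest LFC array was W18 (-1.08). The ranges of HF5 (-0.66 to 1.43, median 0.16), HF20 (-1.89 to 1.08, median 0.21) and HF75 (-1.12 to 0.51, median 0.06) overlapped those of LFC and HFC.

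**Figure D1:**
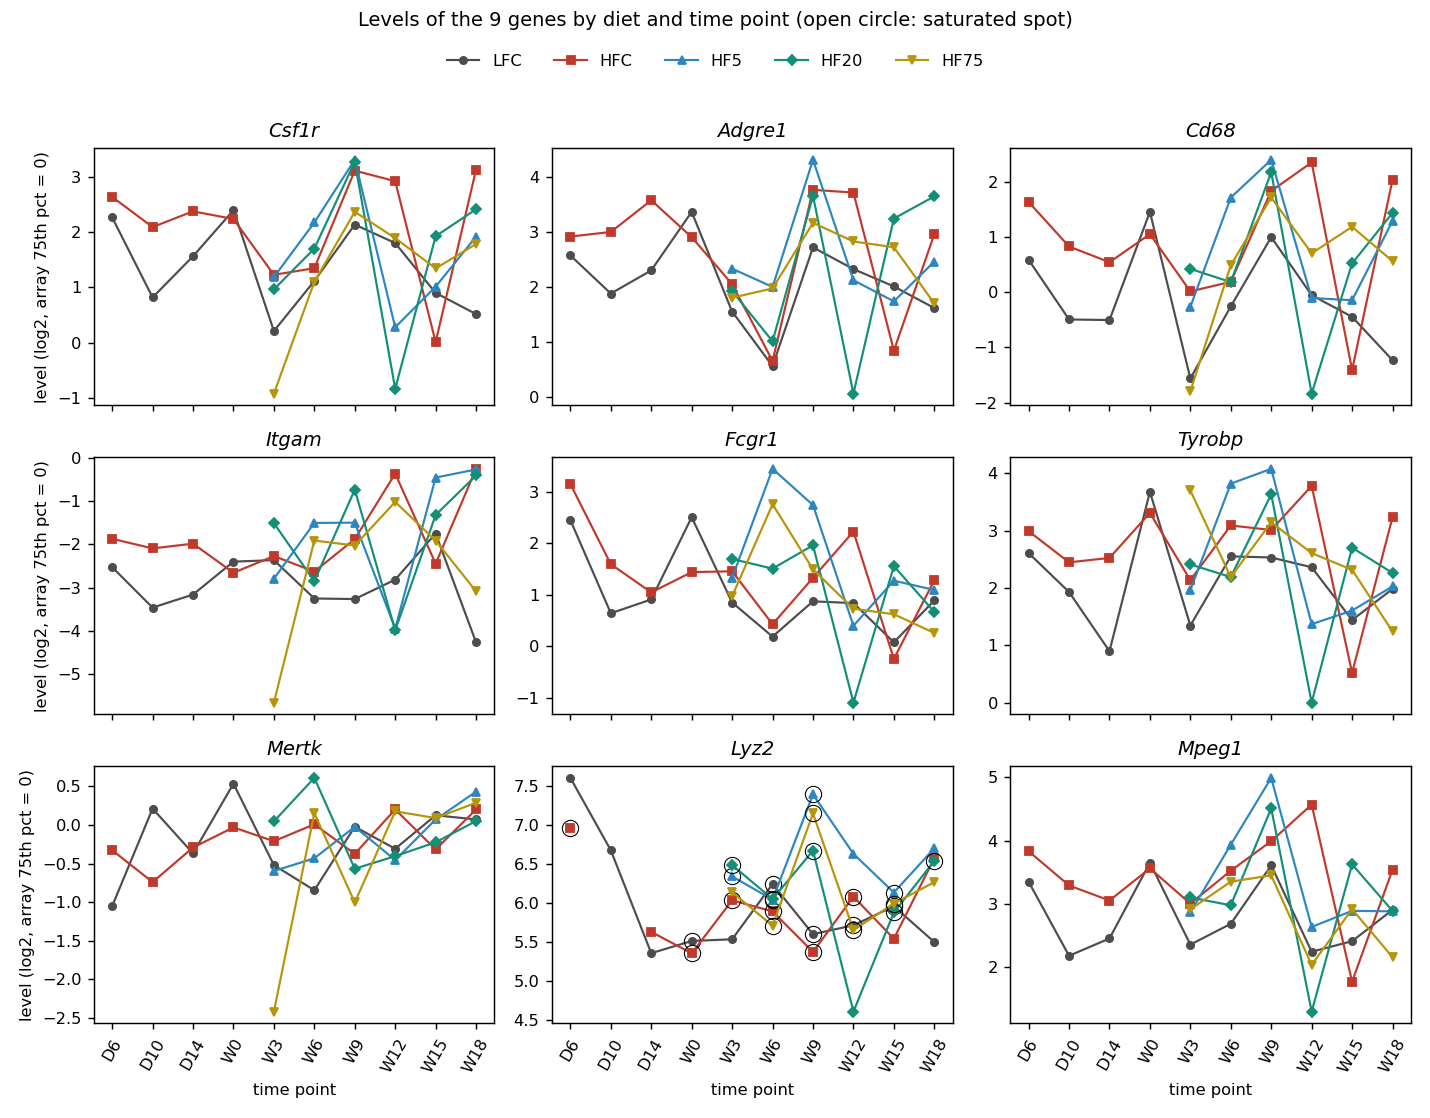
Level of each of the 9 genes (log2 signal minus the array's log2 75th percentile) at each time point, 1 point per array, with lines joining the arrays of a diet and open circles around saturated spots. HF20 W12 had the lowest mean deviation over the 9 genes (-1.89, or -1.99 with the unsaturated Lyz2 probe), and the ranges of the diets overlap in every panel.

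The first comparison asked whether the high fat diet changed these genes. Over the 10 time points all 9 had a higher mean of differences in HFC than in LFC, with a median of 0.57 log2, while the median of all 31203 probes tested was 0.01. None of them passed the adjusted threshold of 0.05 (limma with time point as a block, adjusted p 0.547 to 0.958), and neither did any other probe (0%, smallest adjusted p 0.547). At an unadjusted p below 0.05, 2824 probes stood out in either direction, of which those higher in HFC were 4.55% of the probes tested. Among the 9 genes, 5 had such a p and all 5 were higher in HFC: Csf1r, Cd68, Itgam, Tyrobp and Mpeg1. Of the 15 member probes 9 did.

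Cd68 had the smallest p. Its level ran from -1.56 (W3) through a median of -0.35 to 1.45 (W0) in LFC and from -1.41 (W15) through a median of 0.94 to 2.35 (W12) in HFC. The ranges overlapped, with W0 at the top of LFC and W15 at the bottom of HFC, and HFC was above LFC at 8 of 10 time points. The difference was 1.06 log2 (SE 0.36, 95% confidence interval 0.27 to 1.84, limma unadjusted p = 0.0129, adjusted p = 0.547).

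Itgam, the integrin chain also known as CD11b, had the widest difference of the first probes. LFC arrays ran from -4.26 (W18) through a median of -2.99 to -1.75 (W15), and HFC arrays from -2.66 (W0) through -2.04 to -0.26 (W18). The LFC W18 spot was not well above background. The difference of 1.08 log2 (SE 0.40, interval 0.21 to 1.95, unadjusted p = 0.0193) was 0.98 with its other probe (p = 0.0272). It was 0.29 after another background correction (normexp), the correction that acts most on dim probes, and that correction moved the median of all probes to -0.23.

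Csf1r was higher in HFC by 0.74 log2 (SE 0.28, interval 0.12 to 1.36, unadjusted p = 0.0238). Its LFC arrays lay between 0.21 and 2.40 with a median of 1.34, and its HFC arrays between 0.01 and 3.13 with a median of 2.31. HFC was again above LFC at 8 of 10 time points, and the lowest HFC array, W15, was 1 of the exceptions. The other probes of Csf1r differed by 1.04 (unadjusted p = 0.0264) and 0.60 (p = 0.126), the latter over 9 time points.

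Mpeg1, also called perforin-2, was higher by 0.63 (SE 0.24, interval 0.10 to 1.16, unadjusted p = 0.0231) and Tyrobp by 0.57 (SE 0.24, interval 0.04 to 1.10, p = 0.0371). Mpeg1 lay between 2.18 and 3.65 in LFC (median 2.57) and between 1.77 and 4.57 in HFC (median 3.53). Tyrobp lay between 0.90 and 3.67 in LFC (median 2.17) and between 0.52 and 3.78 in HFC (median 3.00). The groups of both genes overlapped, and both were higher in HFC at 8 of 10 time points. The second Mpeg1 probe gave the same 0.63 with a wider spread (p = 0.118).

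For Adgre1, Fcgr1 and Mertk the interval of the first probe held 0. Adgre1 lay between 0.55 (W6) and 3.36 (W0) in LFC with a median of 2.15 and between 0.65 (W6) and 3.76 (W9) in HFC with a median of 2.93. It differed by 0.55 (SE 0.26, interval -0.03 to 1.12, unadjusted p = 0.0597), and its second probe by 0.99 (p = 0.0172). Fcgr1, which lay between 0.08 and 2.51 in LFC and between -0.24 and 3.15 in HFC, differed by 0.35 (SE 0.22, p = 0.136). Mertk differed by 0.03 (SE 0.20, interval -0.40 to 0.46, p = 0.885). Its LFC arrays ran from -1.05 (D6) to 0.53 (W0) with a median of -0.17 and its HFC arrays from -0.74 (D10) to 0.20 (W18) with a median of -0.25. The SD over the arrays, 0.49 in LFC and 0.29 in HFC, was the lowest of the first probes in both diets, and the sign of the difference turned with normexp (-0.00475).

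**Figure D2:**
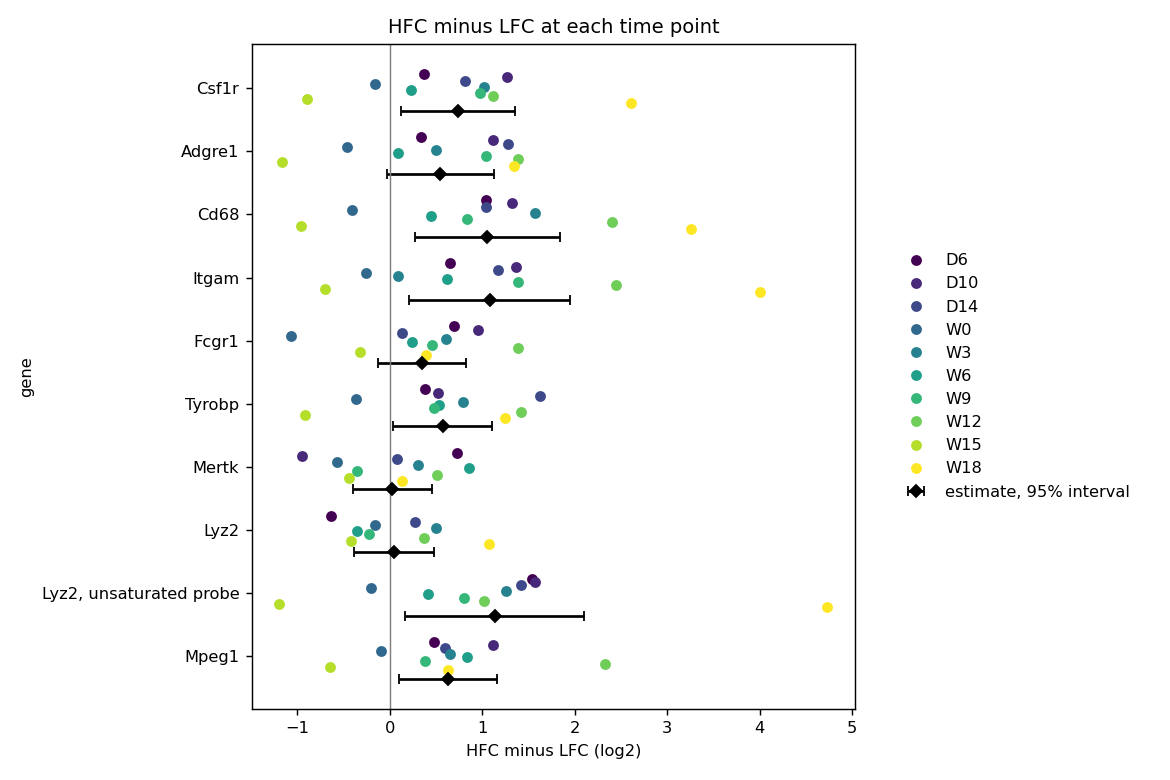
Difference between HFC and LFC of each gene (log2): circles are the time points, coloured by time, and the diamond with its bar is the limma estimate with its 95% confidence interval. The estimates run from 0.03 (Mertk) to 1.08 (Itgam), or to 1.14 with the unsaturated Lyz2 probe, and the intervals of Csf1r, Cd68, Itgam, Tyrobp, Mpeg1 and the unsaturated Lyz2 probe lie above 0.

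Lyz2, the lysozyme of macrophages and neutrophils, needs its probes to be read apart. The first probe, the brighter one, was saturated on 24 of 38 arrays: 5 of LFC, 6 of HFC, 4 of HF5, 5 of HF20 and 4 of HF75. The processed signal on those arrays lay between 64516 and 91727 scanner units, near the top of the scanner's range. A level there is thus a lower bound that moves against brightness. Some arrays not marked as saturated lay in the same band: HFC D14 (85357.3), HF5 W18 (78107.4) and HF75 W18 (85862.5). Pearson's r between the level and the log2 75th percentile was -0.95 over the 24 saturated arrays. The second probe was saturated on none, and its level and that of the first had r = 0.27 over the arrays measured with both.

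The Lyz2 result depended on which probe was read. With the first probe the difference between HFC and LFC was 0.05 log2 (SE 0.20, interval -0.39 to 0.48, unadjusted p = 0.816), higher in HFC at 4 of 9 time points. The D10 time point is missing because the spot was marked as an outlier on the HFC array and was left out, which is also why the plain means, 5.94 in HFC over 9 arrays and 5.97 in LFC over 10, lie the other way. With the second probe the difference was 1.14 log2 (SE 0.44, interval 0.17 to 2.10, unadjusted p = 0.0251), higher in HFC at 8 of 10 time points. That probe ran from -3.45 (W18) through a median of -0.30 to 1.38 (W9) in LFC and from -1.59 (W15) through 0.92 to 2.19 (W9) in HFC. Lyz1, the paralog with which Lyz2 shares much of its sequence, was higher by 0.67 (SE 0.29, unadjusted p = 0.0433), and how far RNA of the paralogs binds each other's probes was not tested.

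**Figure D3:**
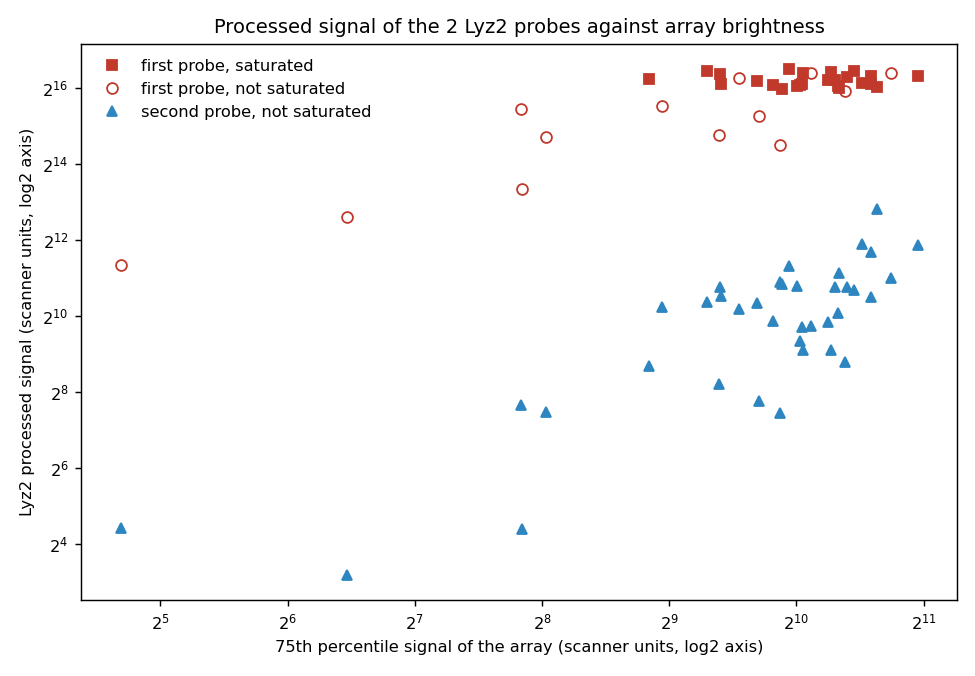
Processed signal of the first Lyz2 probe (squares where saturated, open circles where not) and of the second (triangles) on each array against the array's 75th percentile signal, both axes on a log2 scale in scanner units. The squares form a flat band between 64516 and 91727 scanner units whatever the brightness, while none of the triangles is saturated. The open circles of HFC D14, HF5 W18 and HF75 W18 lie in the same band.

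At single time points, where HFC and LFC had 1 array each and no test is possible, the genes stood together on the same side. All measured genes were higher in HFC at D14, W3, W12 and W18 (9 of 9 each), nearly all at D6 (8 of 9), D10 (7 of 8), W6 (8 of 9) and W9 (7 of 9), and none at W0 and W15 (0 of 9 each). The methods count weeks from the end of the first 14 days, so D14 (9 of 9) and W0 (0 of 9) fell on the same elapsed day. The median over the genes was 0.48 at D6, 1.12 at D10, 0.81 at D14, -0.37 at W0, 0.61 at W3, 0.45 at W6, 0.48 at W9, 1.39 at W12, -0.70 at W15 and 1.25 at W18. The median of all probes was itself 0.51 at W12, and it lay between -0.14 and 0.09 at the other time points.

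The genes at least 2-fold higher in HFC numbered 1 of 9 at D6 (15.9% of all probes), 5 of 8 at D10 (20.7%), 4 of 9 at D14 (12.8%), 0 of 9 at W0 (10.2%) and 2 of 9 at W3 (10.2%). They numbered 0 of 9 at W6 (10.2%), 2 of 9 at W9 (6.73%), 7 of 9 at W12 (39.0%), 0 of 9 at W15 (11.1%) and 6 of 9 at W18 (21.4%). Those at least 2-fold lower were Fcgr1 at W0 (-1.07, against 5.44% of all probes) and Adgre1 at W15 (-1.17, against 8.89%). At W18 Cd68 differed by 3.26, from -1.23 in LFC to 2.03 in HFC, and the second Lyz2 probe by 4.73, from -3.45 to 1.28. Itgam was at -0.26 in HFC at that time and not well above background in LFC. Second probes differed as widely at other time points, that of Mpeg1 by 4.10 at W12.

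Whether the difference between HFC and LFC changed with elapsed time was tested next. In 0 of 9 genes was the unadjusted limma p of this change below 0.05 (lowest 0.139), against 4.36% of all probes and 0% after adjustment. Itgam had the steepest change, 0.09 log2 per week (interval -0.03 to 0.21). Within HFC alone the steepest was also Itgam, at 0.07 per week (SE 0.03, unadjusted p = 0.0603), and 0 of 9 genes had a positive slope below 0.05 (3.45% of all probes). Within LFC 0 of 9 did in either direction (3.89%), with Fcgr1 at -0.06 per week (p = 0.110). The second Adgre1 probe had a slope of -0.08 per week there (unadjusted p = 0.0397). Over weeks 3 to 18 only, Cd68 was higher in HFC by 1.26 (SE 0.56, interval 0.10 to 2.42, unadjusted p = 0.0339) and was the 1 gene of 9 below 0.05, against 2.38% of all probes. Of the 15 member probes 3 were below it, among them the second Adgre1 probe (1.03, p = 0.0212) and the Csf1r probe of lowest mean level (1.13, p = 0.0251).

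Taking out the time points of the arrays that stood apart moved the sizes little and the number of small p-values more. Without D6, D10 and W6 the median of the 9 genes was 0.56 and 0 genes had an unadjusted p below 0.05. Without D10 and W3 it was 0.55 with 1 gene, and without W9 and W12 it was 0.45 with 0 genes. With D6, D10 and W6 left out, 3.86% of all probes were higher in HFC with such a p. No such share is given for the other alternatives. With array brightness as a covariate the median was 0.49, and 1 gene, Mpeg1, was below 0.05 (0.74, unadjusted p = 0.0474), while Cd68 had a difference of 0.94 (p = 0.0888). Csf1r, Adgre1, Cd68, Itgam, Fcgr1, Tyrobp and Mpeg1 were higher in HFC under each alternative that tested them. Csf1r ran from 0.53 to 1.01 and Cd68 from 0.81 to 1.28, and the lowest value among these genes was 0.20 (Fcgr1).

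The next comparisons asked whether KAL-1 changed the genes under the high fat diet. HF5 minus HFC had a median of -0.03 over the 9 genes (3 positive, 6 negative), HF20 minus HFC a median of -0.16 (2 positive, 7 negative) and HF75 minus HFC a median of -0.36 (3 positive, 6 negative). No gene had an unadjusted p below 0.05 in any of them. The background was 4.79% of 33780 probes for HF5, 1.58% for HF20 and 2.0% for HF75, and 0% after adjustment. Over all these probes the median was -0.03 for HF5, 0.04 for HF20 and 0.04 for HF75. The positive ones were 47.3%, 56.2% and 54.1% of them in order of dose. With the doses averaged the median of the 9 genes was -0.22, beside 0.01 over all probes. The genes ran from -0.46 (Csf1r) to 0.33 (the first Lyz2 probe), again with 0 of 9 below 0.05 (1.79% of all probes). The second Lyz2 probe lay the other way, at -0.55 (interval -1.75 to 0.65).

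Cd68 lay between -0.27 and 2.39 in HF5 (median 0.59), between -1.83 and 2.17 in HF20 (0.47) and between -1.79 and 1.71 in HF75 (0.63). Its highest array was that of W9 in each of these diets, and its ranges overlapped the -1.41 to 2.35 of HFC. Mpeg1 lay between 2.63 and 4.99 in HF5 (median 2.88), between 1.29 and 4.51 in HF20 (3.04) and between 2.03 and 3.45 in HF75 (2.91), with W9 again the highest. Csf1r had medians of 1.55, 1.81 and 1.56 in order of dose, beside the 2.31 of HFC over its 10 time points. Its differences from HFC were -0.31 in HF5, -0.38 in HF20, -0.70 in HF75 and -0.46 over the doses, none with an unadjusted limma p below 0.05.

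Among the first probes Itgam in HF75 had the estimate farthest from 0, -0.96 with an interval of -2.46 to 0.54, beside -0.21 with its second probe. Its HF75 arrays ran from W3, where it was not well above background, through a median of -1.97 to -1.02 (W12). The second Mpeg1 probe in HF75 differed by -1.07 (interval -2.26 to 0.12, unadjusted p = 0.0752). HF75 W3 is a dim array, and without it and HF5 W12 the median of HF75 minus HFC over the 9 genes was -0.07. Fcgr1 in HF5 was higher by 0.63 (interval -0.39 to 1.65), with 1 array, HF5 W6, at 3.45 and a median of 1.30. Mertk differed from HFC by 0.000532 in HF20, with an interval of -0.66 to 0.66. The smallest p of the first probes was that of Lyz2 in HF5 (0.62, interval -0.01 to 1.26, unadjusted p = 0.0527, higher at 6 of 6 weeks), which was saturated on 4 of the 6 HF5 arrays. The second Lyz2 probe lay the other way, at -0.62 (interval -2.09 to 0.85, p = 0.395), higher at 2 of 6 weeks.

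Week by week, the doses were each set against the same HFC array, so their differences within a week are not independent. At W12 nearly all genes were lower than in HFC in each dose: 8 of 9 in HF5 (median -1.94), 9 of 9 in HF20 (-3.62) and 9 of 9 in HF75 (-1.03). At W15 all 9 were higher in each dose, with medians of 1.09, 1.86 and 1.15 in order of dose. W12 and W15 were the weeks with the highest and the lowest HFC array. Without W12 the median of HF5 minus HFC was 0.46 and that of HF20 minus HFC 0.41, both turned in sign, and that of HF75 was -0.10. At W18 the genes higher than in HFC were 2 of 9 in HF5, 1 in HF20 and 1 in HF75. No share or median of all probes stands beside these weekly counts. At W12 the probes well above background were 91.6% on HFC, 40.1% on HF5, 87.3% on HF20 and 89.4% on HF75. The median of all probes on HFC W12 was itself 0.51 above that on LFC W12. The part of such array-wide shifts in the W12 differences was not tested.

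Of the 18 dose arrays 8, among them all of W9, did not share their scan day with the HFC array of their week. Over the weeks scanned on the same day the median was -0.17 for HF5 (5 weeks), -0.50 for HF20 (3 weeks) and 0.15 for HF75 (2 weeks). Taking the dose from the diet field in place of the source name gave medians of 0.09 for HF5 and -0.46 for HF20.

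**Figure D4:**
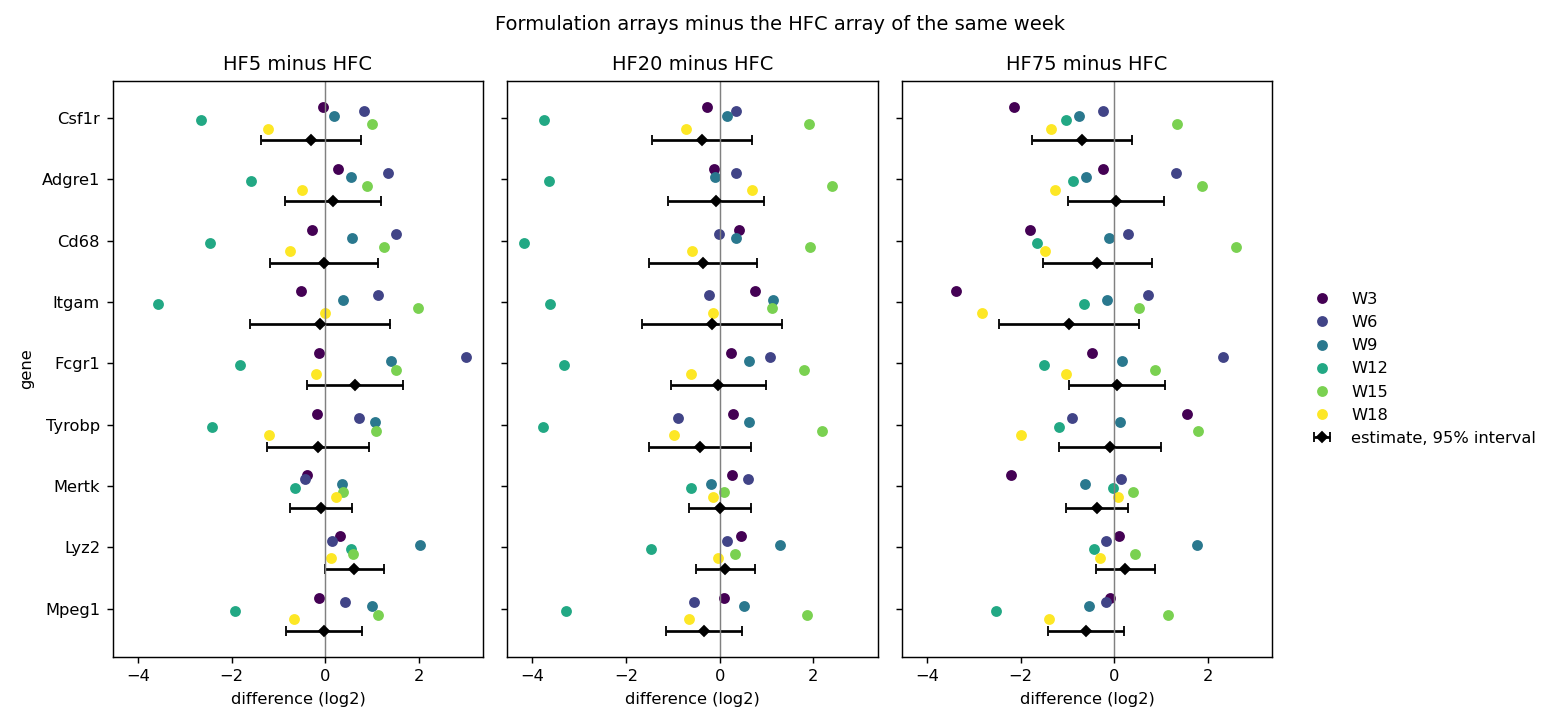
Difference between each KAL-1 diet and HFC at each week (log2), with a row for each gene: circles are the weeks, coloured by week, and the diamond with its bar is the limma estimate with its 95% confidence interval. Bars cross or touch 0 in all rows, and the medians of the 9 genes at W12 are -1.94, -3.62 and -1.03 for HF5, HF20 and HF75, and at W15 they are 1.09, 1.86 and 1.15.

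Against LFC, the mean of the doses was higher in all 9 genes, with a median of 0.48 beside 0.08 over all probes. Cd68 alone had an unadjusted p below 0.05 (1.02, SE 0.46, interval 0.07 to 1.96, p = 0.0359, higher at 5 of 6 weeks), against 6.02% of all probes that were higher with such a p, and none passed after adjustment. Of the 15 member probes 3 had such a p, among them the Csf1r probe of lowest mean level (0.96, p = 0.0160, higher at 6 of 6 weeks). The second Adgre1 probe was higher by 1.19 at 6 of 6 weeks (unadjusted p = 0.00197, limma adjusted p = 0.556), and the first by 0.58 at 5 of 6 weeks (p = 0.168). Of the arrays compared, the second probe was not well above background on LFC W3, LFC W18, HF5 W12 and HF75 W3. Without W12 the number of genes below 0.05 was 6, and without the HF20 W12 array 4. It was 0 without W9, without W18, with scan day as a block and with time point left out of the model. No share of all probes stands beside these counts with arrays left out or the model changed. The comparisons of the doses and of HFC with LFC share the LFC arrays of weeks 3 to 18, so their likeness is no independent support.

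The members followed each other over the arrays to unequal degrees. After each time point's mean was taken out, r with the average of the other members over the 38 arrays was 0.93 for Cd68, 0.89 for Csf1r, 0.87 for Adgre1, 0.80 for Mpeg1, 0.77 for Fcgr1, 0.74 for Itgam and 0.68 for Tyrobp. It was 0.71 for the second Lyz2 probe, 0.46 for the first over 37 arrays and 0.26 for Mertk. The closest pair was Csf1r and Cd68 (0.90), followed by Adgre1 and Cd68 (0.84). Tyrobp was closest to Mpeg1 (0.80), and Mertk and Tyrobp had r = -0.14. All these arrays share the scaling to their own 75th percentile, and r with log2 brightness was 0.43 for Mertk, 0.44 for Itgam, 0.38 for the second Lyz2 probe, -0.44 for the first, 0.33 for Csf1r and between 0.01 and 0.23 for Adgre1, Cd68, Fcgr1, Tyrobp and Mpeg1. Probes of the same gene had r of 0.63 for Adgre1, 0.76 for Itgam, 0.31 for Mpeg1 and 0.54 to 0.90 for the pairs of Csf1r, without removal of time point means.

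**Figure D5:**
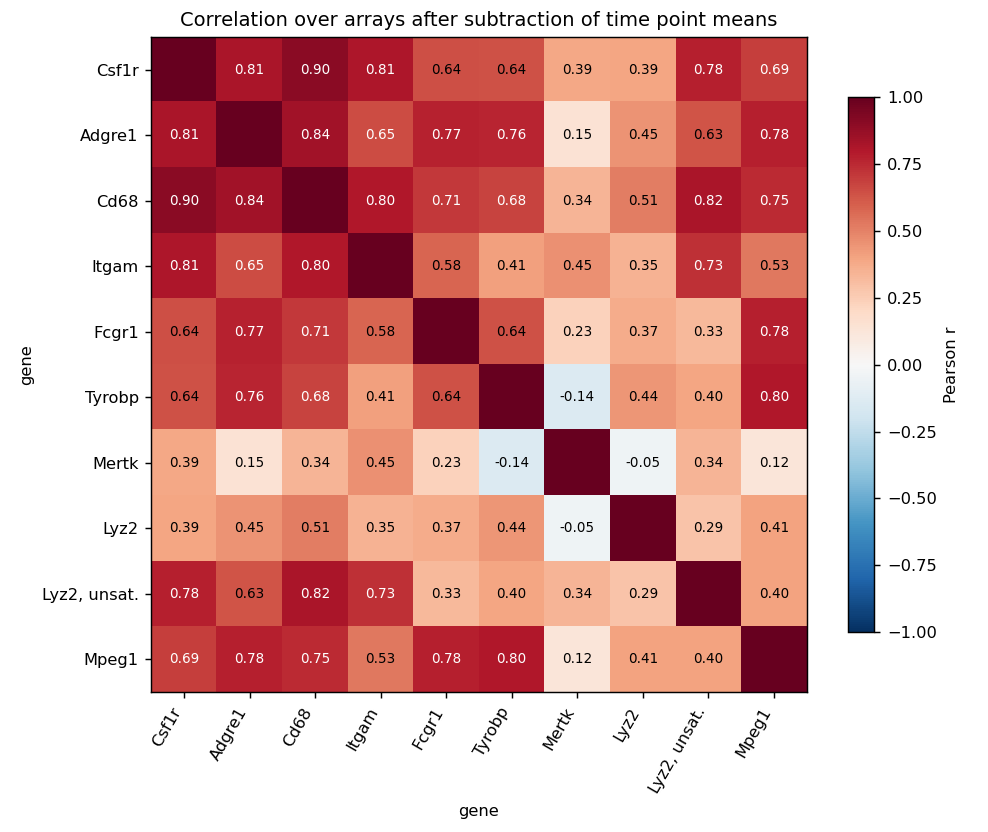
Pearson's r between the members' levels over the 38 arrays (37 for the first Lyz2 probe) after subtraction of each time point's mean, written in each cell. Csf1r, Adgre1 and Cd68 had r of 0.81 to 0.90 with each other, and the row of Mertk holds the lowest values, down to -0.14 with Tyrobp.

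The genes outside the list whose level was most like the members' mean were named by rank among 24490 probes, whose median r was -0.02. They were Pirb (r = 0.97, named Lilrb3 in the files), Alox5ap (0.96), C1qc (0.96), Emp3 (0.95), Ccl6 (0.94), Ccl9 (0.94), Fcgr3 (0.94), Fcgr2b (0.93), C1qb (0.93) and Igsf6 (0.92). Pirb is an inhibitory receptor, C1qb and C1qc are chains of the complement component C1q, Alox5ap serves leukotriene synthesis and Ccl6 and Ccl9 are chemokines. Their differences between HFC and LFC ran from 0.53 (C1qc) to 0.92 (Ccl9), with adjusted p of 0.547 to 0.556. These genes were picked by likeness to the members over the same arrays, which keeps the difference between diets. Their being higher in HFC is thus no independent support.

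The partners of the members were read from lists that leave the members out, counted at the same unadjusted p below 0.05, with which 4.55% of all probes were higher in HFC. Of the ligands and receptors of the CSF1 and CSF2 family, 0 of 6 stood out between HFC and LFC, with a median of 0.40, and Csf1, a ligand of Csf1r, was higher by 0.40 (SE 0.22, p = 0.0923). Of the receptors and chains that use Tyrobp or the related adaptor Fcer1g, 3 of 10 were higher: Clec4e (1.71, SE 0.67), Clec5a (0.53, SE 0.20) and Fcer1g itself (0.56, SE 0.22). Of the other Fc gamma receptors 1 of 4 was higher, Fcgr3 (0.76, SE 0.33), and of the beta2 integrins 1 of 4, Itgb2 (0.85, SE 0.31), the chain that pairs with Itgam. The lists read each gene by its probe of highest mean level. The probes of Fcgr3 and Fcgr2b named above by likeness were others, higher by 0.92 (limma unadjusted p = 0.0095) and 0.74 (p = 0.0345). No gene of these lists passed after adjustment. Without D6, D10 and W6, the time points of the arrays low in Tcf21 and Wt1, 0 genes of these lists had such a p, against 3.86% of all probes higher in HFC.

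Mertk belongs to the TAM receptors, which bind the bridging ligands Gas6 and Pros1. Of the other receptors and the ligands of this family 2 of 4 had such a p, and they were the receptors: Axl was higher in HFC by 0.68 (SE 0.21, p = 0.00733) and Tyro3 by 0.78 (SE 0.26, p = 0.0126). The difference between these genes and Mertk was not tested. Among transcription factors of the lineage 2 of 9 were higher, Spi1 (0.76, SE 0.32), which encodes PU.1, and Irf5 (1.01, SE 0.38). Of 18 other macrophage genes 6 were higher and none lower, with a median of 0.56, Lgals3 (0.72, SE 0.29) and Ctss (0.52, SE 0.21) among them. Scavenger receptors other than Cd68 had 0 of 8 (median 0.27). The share of all probes higher in HFC was 4.55%. Without D6, D10 and W6 the counts higher in HFC were 1 of 4 for the TAM list, 1 of 9 for the transcription factors and 2 of 18 for the other macrophage genes, whose median was then 0.64.

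Lists of other cell types were counted in the same way, beside 4.55% of all probes higher and 4.50% lower in HFC. The pan-leukocyte list had 2 of 11 genes higher in HFC (median 0.61), the NK cell list 4 of 6 (median 1.02), the monocyte list 1 of 8 (0.18), and the neutrophil, T cell and B cell lists none (medians 0.44, 0.44 and 0.34). On the other side, the adipocyte list had 4 of 11 genes lower in HFC (median -0.63), the brown adipocyte list 3 of 5 (median -1.77) and the endothelial list 2 of 8 (-0.61). The brown adipocyte list had mean levels of 2.33 on LFC D6 and 2.89 on LFC D10, the arrays with Ucp1, and of 0.44 or less on the other LFC arrays. Without D6, D10 and W6 the counts lower in HFC were 2 of 11 (median -0.81), 0 of 5 (-0.34) and 2 of 8 (-0.42), against 1.39% of all probes, and the NK cell list had 1 of 6 higher (1.08). With all time points the widest positive medians were those of the epididymis (2.20), mesothelial (1.81) and sperm and testis (1.25) lists, each with 0 genes called. Without D6, D10 and W6 they had 0 of 10 (1.15), 3 of 7 (1.01) and 5 of 6 (1.99) higher, against 3.86% of all probes. The mast cell list then had 4 of 7 higher and 1 lower (0.79). The mean level of the adipocyte list ran from 0.52 to 5.14 in LFC with a median of 2.84 and from 1.42 to 5.10 in HFC with a median of 2.07, so adipocyte RNA was present in both diets. Over the 38 arrays the adipocyte list had r = 0.28 with the members' mean and the NK cell list 0.69, and the part of either in the differences of the members was not tested.

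PU.1 binds purine-rich sites in the promoters of many myeloid genes, and 2 promoters are shown since Itgam and Cd68 had the widest differences among the first probes. The sequence is the 250 bases before the start of the gene on its own strand, from RefSeq (GRCm38.p6), and 6 of the 9 genes were matched. The letters GAGGAA, or TTCCTC on the other strand, are in capitals. They were found in 3 of the 6 (Cd68, Itgam and Fcgr1, not in the windows of Mertk, Lyz2 and Mpeg1) and in 23.3% of all 32851 promoters of the same length. A match is a run of letters and not a measured binding site.
Cd68, chr11:69666171-69666420, minus strand: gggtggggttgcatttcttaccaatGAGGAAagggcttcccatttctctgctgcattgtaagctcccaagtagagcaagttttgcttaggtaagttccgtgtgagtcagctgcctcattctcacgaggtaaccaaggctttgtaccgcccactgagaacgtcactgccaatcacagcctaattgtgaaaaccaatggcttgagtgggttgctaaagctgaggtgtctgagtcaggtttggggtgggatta
Itgam, chr7:128062390-128062639, plus strand: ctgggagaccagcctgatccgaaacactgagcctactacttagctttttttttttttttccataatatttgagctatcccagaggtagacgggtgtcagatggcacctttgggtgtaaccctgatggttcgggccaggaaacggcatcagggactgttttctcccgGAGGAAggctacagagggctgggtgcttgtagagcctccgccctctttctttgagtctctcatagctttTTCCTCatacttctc
In Cd68 the run begins 225 bases before the start, and in Itgam the runs begin 84 and 15 bases before it.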

How the data were processed

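Messenger RNA was measured on 38 single-colour Agilent mouse arrays (LFC and HFC 10 each, HF5, HF20 and HF75 6 each). Per the file headers, Feature Extraction gave the processed signal, an intensity from which background and spatial trend were removed on each array (version 9.1 in the submitters' processing notes, though the headers name another), and the mean and background signals are intensity values as scanned. The deposited series table holds log2 values that the authors shifted by each array's 75th percentile and set against the LFC array of the time point, and it was used as an alternative.

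From the 43803 non-control spots of an array, outlier spots were left out, log2 signals were reduced by the array's 75th percentile and spots of a probe were averaged. Saturated spots were kept. Of the 40628 probes, 69.3% were found in a table of mouse genes, from which current symbols were taken. No coordinates of probes are given, since the table and the array design differ in build. Probes well above background on at least 0.5 of the arrays of a diet were tested with limma 3.58.1 in R 4.3.3 (two-sided, Benjamini-Hochberg over all probes, threshold 0.05), with time point as a block except in slopes within a diet. The script was tested on simulated data. The arrays came from 31 slides and 14 scan days. LFC and HFC of a time point were scanned on the same day. The number of arrays limits the precision.

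The named genes are the 9 members, the 10 probes of other genes most correlated with their mean, and genes of 27 lists beside a result. Members and lists were chosen with earlier results of these data known. Alternatives were the background correction, normalisation, filter, brightness, probe choice, block, slide, scan day, dose label, the deposited table, the methods' t-test and leaving out each time point. Those that left out arrays standing apart, or swapped the Lyz2 probe, were chosen after seeing the data.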

Additional observations from a re-analysis of the deposited data

Results flagged for a closer look

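In 4 of 50 groups of arrays (a gene in a diet), the highest or lowest array lay further from its neighbour than Dixon's critical value allows, where chance gives about 1 in 20. Adgre1 on HF5 W9 was at 4.31, with the next array at 2.45. Cd68 on HF75 W3 was at -1.79, with the next at 0.49, and the second Lyz2 probe on the same array was at -3.28, with the next at -0.39. HF75 W3 was the second dimmest array. Tyrobp on HFC W15 was at 0.52, with the next HFC array at 2.14, and HFC W15 was the lowest HFC array of the 9 genes on average.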

How the results depend on the processing

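Of 902 recomputed values over the alternatives, 13 values of single genes turned in sign and 26 moved, and the others stayed on their side of the threshold or within the spread. Within that spread the medians of HF5 and of HF20 minus HFC, of the doses averaged minus HFC and of the slope in HFC also crossed 0 under some alternatives. For HFC minus LFC over 10 time points, 5 genes had an unadjusted p below 0.05. The number was 4 to 7 when each time point was left out, 1 with array brightness as a covariate, 0 without D6, D10 and W6, 1 without D10 and W3 and 0 without W9 and W12. With no replicate block, that is without time point in the model, it was 3. The same time point correlated at -0.14 to 0.63 between LFC and HFC, and in 7 of 10 pairs the best correlation was with the own time point. For the other pairs the pairing by time point rests on the labels. The signs of Mertk and of the first Lyz2 probe depended on the setting. Mertk lay between -0.0624 and 0.14 when each time point was left out (-0.0481 without D6, -0.00197 without W3, -0.0241 without W12), and was -0.00475 with normexp and -0.0479 without D6, D10 and W6. Lyz2 lay between -0.0813 (without W18) and 0.13, was -0.00943 without W3 and also without D10 and W3, and was -0.0312 with no replicate block. It was -0.46 in the authors' table, which keeps the outlier spot of HFC D10.

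For HFC minus LFC over weeks 3 to 18 the count of genes was 1, and it was 2 with quantile normalisation, 3 with the mean of a gene's probes, 2 without HF5 W12 and HF75 W3, and 0 with no replicate block, with scan day as a block and with the methods' t-test. It was 0 to 3 when each week was left out (0 without W3, W9 or W18, 3 without W15). For the mean of the doses minus LFC the count of 1 became 2 with brightness, with the mean of probes and without HF5 W12 and HF75 W3, 4 without HF20 W12, 0 with no replicate block and with scan day as a block, and 0 to 6 when each week was left out (0 without W9 or W18, 6 without W12). Mertk in that comparison lay between -0.172 and 0.12 (-0.0174 without W18), and 1 of all probes passed the adjusted threshold with quantile normalisation. The median change of HFC minus LFC per week ran from -0.00356 to 0.0479 (without W15), where it was 0.00801 with all. In no other alternative did a probe pass the adjusted threshold. No share of all probes stands beside the counts of genes given here for the alternatives. The causes were not tested. Signal over background limits Itgam, not well above background on 3 arrays, and saturation limits the first Lyz2 probe.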
